A study of Mus musculus with 480 samples.

Results

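The genes described here are 10 components of the bone morphogenetic protein (BMP) and transforming growth factor beta (TGF-beta) pathways, of 53379 genes counted in single lung epithelial cells. They were chosen by name: the ligands Bmp4, Tgfb1 and Tgfb2, the receptors Bmpr1a, Bmpr2, Tgfbr1 and Tgfbr2, and the targets Id1, Id2 and Id3. All 10 were found by their Ensembl identifiers. The cells were 480 tdTomato-positive cells of 3 mouse reporter lines, 160 per line, and the submitters gave each cell a sub-type. BASCs are bronchioalveolar stem cells, found at the junction of airway and alveoli, and carry products of both neighbouring epithelia. Club cells are secretory cells of the airway, ciliated cells carry its cilia, and AT2 cells are the surfactant-making cells of the alveolus.

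BMP and TGF-beta ligands bind a pair of type II and a pair of type I serine/threonine kinase receptors. The type II receptor phosphorylates the type I receptor, which phosphorylates Smad proteins that enter the nucleus with the shared partner Smad4. BMP ligands act mainly through Smad1, Smad5 and Smad9, and the Id genes, whose products hold back basic helix-loop-helix transcription factors, are their best-known direct targets. TGF-beta ligands act mainly through Smad2 and Smad3 and are secreted in a latent form that needs release. In the lung, Bmp4 is best known from branching of the embryonic airway, and both pathways are known regulators of alveolar epithelial proliferation and differentiation.

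The BASCs-Tracer line carries Sftpc-DreER and Scgba1a1-CreER (spelt as in the labels) with the reporter R26-RSR-LSL-tdtomato, which is on only where the Dre of the AT2 gene Sftpc and the Cre of the club cell gene Scgb1a1 have both acted. It gave 85 BASCs on plate 1 and 53 on plate 2, and 15 club cells. The Sftpc-TD line (Sftpc-DreER;R26-RSR-tdtomato) needs the Dre alone and gave 11 BASCs, and AT2 cells numbering 60 on plate 4 and 89 on plate 5. The Scgb1a1-TD line (Scgba1a1-CreER;R26-tdtomato) needs the Cre alone and gave 38 BASCs, 24 ciliated cells and 97 club cells. A further 8 cells belonged to groups of 6 cells or fewer. No source used here gives the age, sex or induction of the mice or how sub-types were assigned. Any cell in which the promoter, or both promoters in BASCs-Tracer, were active at induction can carry the label, as can its progeny.

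No animal was named, so each line was 1 sample: no test was made, and no value below has a replicate check. Levels are reads per 1000000 gene-assigned reads (CPM), summed over the cells of a group. Plates with at least 5 cells of a group give the only spread, and Sftpc-TD BASCs had 1 such plate, with 7 of the 11 cells. Plate pairs below set each such plate of one group against each of the other, on the same plate or not. Each plate thus recurs, and the pairs are not independent. BASCs-Tracer cells lay on plates 1 and 2, Scgb1a1-TD cells on plates 2, 3 and 4, and Sftpc-TD cells on plates 4 and 5, so a difference between lines and a difference between plates cannot be told apart outside the shared plates 2 and 4. Reads per cell had a median of 1000460 and a range of 3379 to 3781974. Intervals are exact, at the 95% level. Those on CPM treat reads as independent, although PCR reads without molecular identifiers are not independent molecules. Those on shares of cells treat cells as the units, and neither kind covers variation between animals.

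The sub-type labels were checked against markers. The 7 AT2 markers summed to between 195952 and 282409 CPM in the 3 groups of BASCs and in AT2 cells, against 1390 CPM in ciliated cells, 22730 CPM in BASCs-Tracer club cells and 8718 CPM in Scgb1a1-TD club cells. The 6 club cell markers summed to 10717 to 24347 CPM in the groups of BASCs and to 15305 CPM in AT2 cells. Scgb1a1-TD club cells held 353197 CPM. The sum did not set BASCs apart from AT2 cells, where Cbr2 alone held 13919 CPM. In BASCs of BASCs-Tracer, Scgb1a1-TD and Sftpc-TD, Scgb1a1 was 13416, 3518 and 8464 CPM, against 1285 CPM in AT2 cells. Cyp2f2 was 1273, 772 and 231 CPM, against 69.3 CPM. Cbr2 went the other way (9465, 6348 and 7643 CPM), and Aldh1a1 was mixed (41.9, 13.3 and 5.09 CPM, against 22.5 CPM). The 6 ciliated cell markers summed to 6723 CPM in ciliated cells, against 95.4 CPM or less elsewhere. Leukocyte markers entered some BASCs: all 8 were at 5 CPM or more in Sftpc-TD BASCs (589 CPM in sum) and 7 of 8 in BASCs-Tracer BASCs (182 CPM), against 1 of 8 (Lcp1, 131.9 CPM) in AT2 cells. A single Sftpc-TD BASC and 3 BASCs-Tracer BASCs held 50 CPM or more of Ptprc, the pan-leukocyte phosphatase, and levels without these cells are given where they matter. Endothelial markers were read too. At 5 CPM or more were 6 of 8 in BASCs-Tracer BASCs, 6 in Scgb1a1-TD BASCs, 7 in Sftpc-TD BASCs and 4 in AT2 cells. In the same order, the highest cells held 3514, 6292, 1712 and 4225 CPM in sum. Of 8 mesenchymal markers, 2 were at 5 CPM or more in BASCs-Tracer BASCs, with a highest cell at 3248 CPM. The part of cells high in endothelial or mesenchymal markers in the levels below was not tested separately.

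The upstream sequences of the Id genes are shown because the Id genes are direct targets of the BMP branch. RefSeq promoters (GRCm38.p6) were matched for 9 of the 10 genes, with no entry for Id1, and Id4 was added because it moved with Id1 and Id3 in ciliated cells (chosen after its values were seen). Within the 250 bases before the RefSeq start, 2 motifs bound by Smad complexes were searched: GTCT on either strand (AGAC on the printed strand counts) and the palindrome GGCGCC. Capitals mark matches. The Id2 stretch (chr12:25096254-25096342, minus strand) holds the 89 bases of the window that lie outside annotated exons, in an intron of a longer Id2 transcript; the Id4 stretch (chr13:48260866-48261115, plus strand) is the whole window. The Id3 window (chr4:136143572-136143821, plus strand) lies in an exon of another annotated Id3 transcript and is described by its matches only.
Id2: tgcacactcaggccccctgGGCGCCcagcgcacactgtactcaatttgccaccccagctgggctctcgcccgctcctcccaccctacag
Id4: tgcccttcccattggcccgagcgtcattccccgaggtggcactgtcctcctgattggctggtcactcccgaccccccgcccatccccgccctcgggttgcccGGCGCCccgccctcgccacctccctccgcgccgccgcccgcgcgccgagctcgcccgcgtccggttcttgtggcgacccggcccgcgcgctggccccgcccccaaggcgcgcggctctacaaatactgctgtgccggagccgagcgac
The Id2 window held 1 GGCGCC and 1 GTCT, Id4 held 1 GGCGCC and 0 GTCT, and Id3 held 2 GTCT and 0 GGCGCC. Of 32851 promoters, 82.9% held GTCT in the same window, with a median of 2 matches, and 9.59% held GGCGCC. The shorter motif is thus common in any promoter of this length, the one match of it in the Id2 window lies outside the printed stretch, and the matches describe letters only.

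Per kilobase of exon, which allows genes to be compared, Id2 was the highest of the 10 genes in BASCs and AT2 cells, at 118.1 CPM per kb in BASCs-Tracer BASCs, 118.4 in Scgb1a1-TD BASCs, 224 in Sftpc-TD BASCs and 180 in AT2 cells. Id1 was the highest in ciliated cells, at 477 CPM per kb, ahead of Id3 at 308 and Id2 at 195. In club cells the leading genes were Id1 at 208 CPM per kb and Bmp4 at 112.003 in BASCs-Tracer, and Bmp4 at 61.5 and Id2 at 60.1 in Scgb1a1-TD. The 4 receptors lay between 0.0528 and 11.97 CPM per kb. Tgfb1 and Tgfb2 never passed 5.95 CPM per kb.

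**Figure D1:**
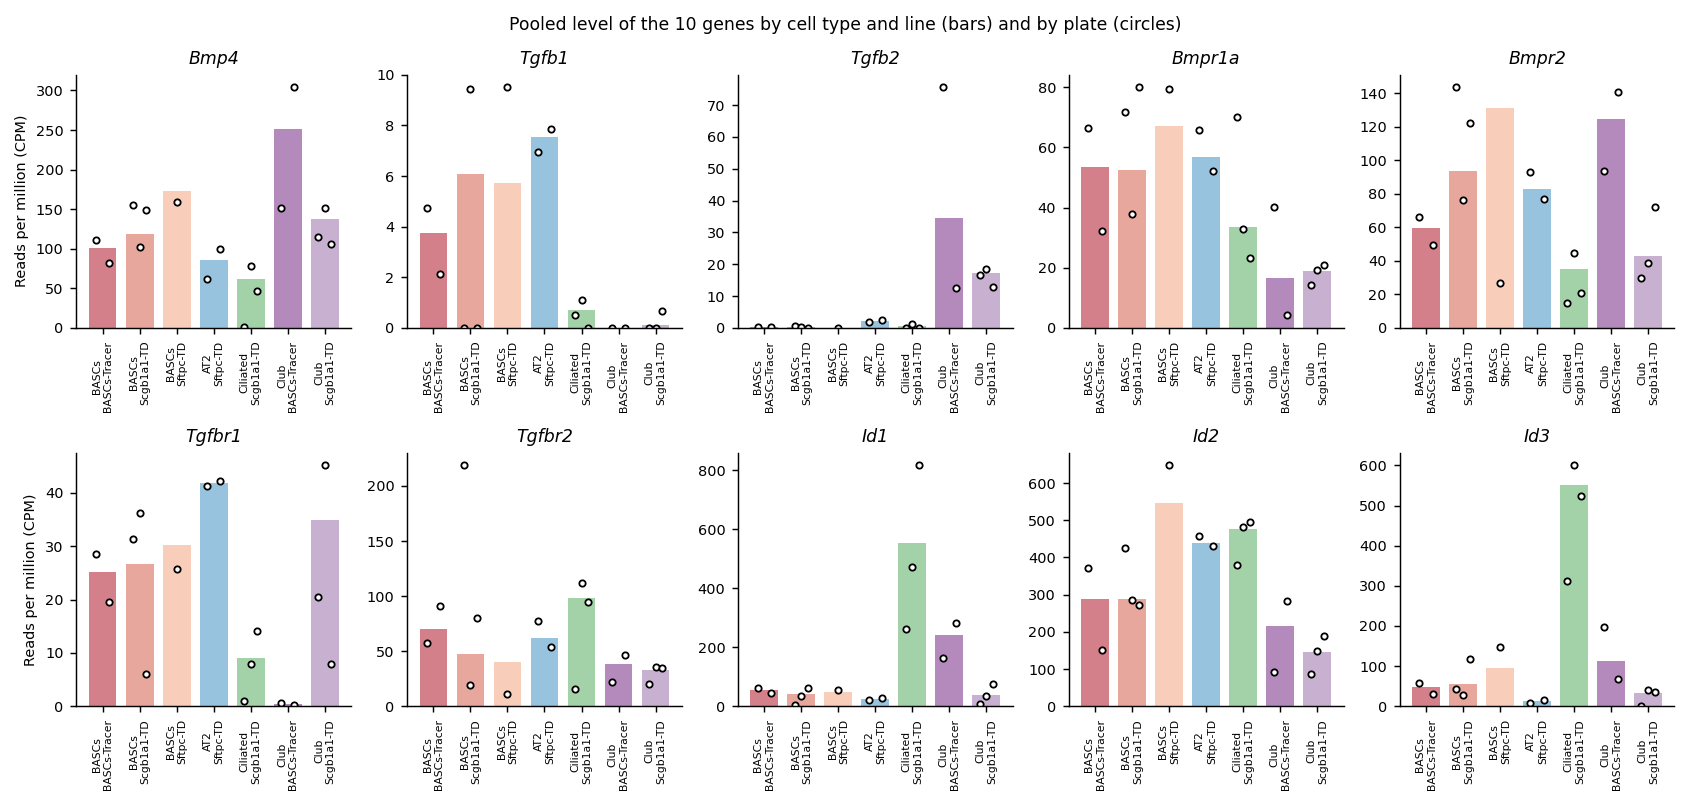
Pooled level in CPM (vertical axis, linear from 0) of each of the 10 genes in 7 groups of cells. Bars are the pool of all cells of a group and circles are the pools of plates with 5 or more of its cells; Id1 and Id3 stand out in ciliated cells (554 and 552 CPM) and Tgfb2 in both groups of club cells (34.5 and 17.2 CPM).

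Bmp4, a secreted BMP ligand (ENSMUSG00000021835, chr14:46383520-46390669, GRCm38), was read in every group. Its pooled level was 100.5 CPM in BASCs-Tracer BASCs, 119.02 CPM in Scgb1a1-TD BASCs, 172 CPM in Sftpc-TD BASCs, 86.4 CPM in AT2 cells, 62.02 CPM in ciliated cells, 252 CPM in BASCs-Tracer club cells and 138.2 CPM in Scgb1a1-TD club cells. By plate it was 111.5 and 82.3 CPM in BASCs-Tracer BASCs, 155, 102.1 and 148.7 CPM in Scgb1a1-TD BASCs, and 61.4 and 99.2 CPM in AT2 cells. The same plates gave 0.996, 78.4 and 46.5 CPM in ciliated cells, 151 and 305 CPM in BASCs-Tracer club cells, and 114.8, 152 and 106.5 CPM in Scgb1a1-TD club cells. In the pools, club cells of both lines and Sftpc-TD BASCs thus held the upper end. For Sftpc-TD BASCs, 1 cell held 38.5% of the reads, 6 of 11 cells had a read, and the median cell held 0.792 CPM. In the order of pooled levels the plate ranges of neighbouring groups overlapped from Scgb1a1-TD club cells, through Scgb1a1-TD BASCs (median cell 79.7 CPM), down to ciliated cells. Ciliated cells were lower than club cells of their line by 1.14 on the log2 scale (2.21-fold), in 9 of 9 plate pairs. The pools hide a wide spread over cells. The median cell held 5.78 CPM among BASCs-Tracer BASCs, 8.99 CPM among AT2 cells and 116.6 CPM among Scgb1a1-TD club cells, with highest cells at 805, 949 and 597 CPM.

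Tgfb1, a TGF-beta ligand (ENSMUSG00000002603, chr7:25687002-25705077), was barely read. It reached 3.75 CPM in BASCs-Tracer BASCs, 6.06 CPM in Scgb1a1-TD BASCs, 5.73 CPM in Sftpc-TD BASCs and 7.56 CPM in AT2 cells, against 0.726 CPM in ciliated cells and 0.123 CPM in Scgb1a1-TD club cells. BASCs-Tracer club cells held 0 reads, which allows up to 0.207 CPM (3 reads of the pool). A few cells carried these values. All 72 reads of Sftpc-TD BASCs lay in the cell with Ptprc, so the level without it was 0 CPM, and the 3 such cells of BASCs-Tracer held 23% of its reads, leaving 2.96 CPM. In Scgb1a1-TD BASCs all 241 reads lay on plate 3. Of the AT2 cells 20 had a read, and none had 50 CPM of Ptprc. The plate ranges of AT2 cells and Scgb1a1-TD BASCs overlapped.

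Tgfb2, another TGF-beta ligand (ENSMUSG00000039239, chr1:186622792-186705989), was highest in the pools of club cells. It stood at 0.357 CPM in BASCs-Tracer BASCs, 0.226 CPM in Scgb1a1-TD BASCs, 2.33 CPM in AT2 cells and 0.772 CPM in ciliated cells, against 34.5 CPM in BASCs-Tracer club cells and 17.2 CPM in Scgb1a1-TD club cells. Sftpc-TD BASCs held 0 reads (up to 0.239 CPM). By plate the club cells had 75.8 and 12.6 CPM in BASCs-Tracer and 16.7, 18.4 and 12.8 CPM in Scgb1a1-TD, and no plate of any other group passed 2.54 CPM. BASCs were lower than club cells of the same line by 4.71 on the log2 scale in BASCs-Tracer (26.1-fold, 4 of 4 plate pairs) and by 3.89 in Scgb1a1-TD (14.8-fold, 9 of 9). The BASCs-Tracer ratio was -3.44 without plate 1 and -5.75 without plate 2. The transcript was nevertheless sparse, since 5 of 15 BASCs-Tracer club cells and 22 of 97 Scgb1a1-TD club cells had a read, and 1 cell held 49.1% of the reads of BASCs-Tracer club cells.

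**Figure D2:**
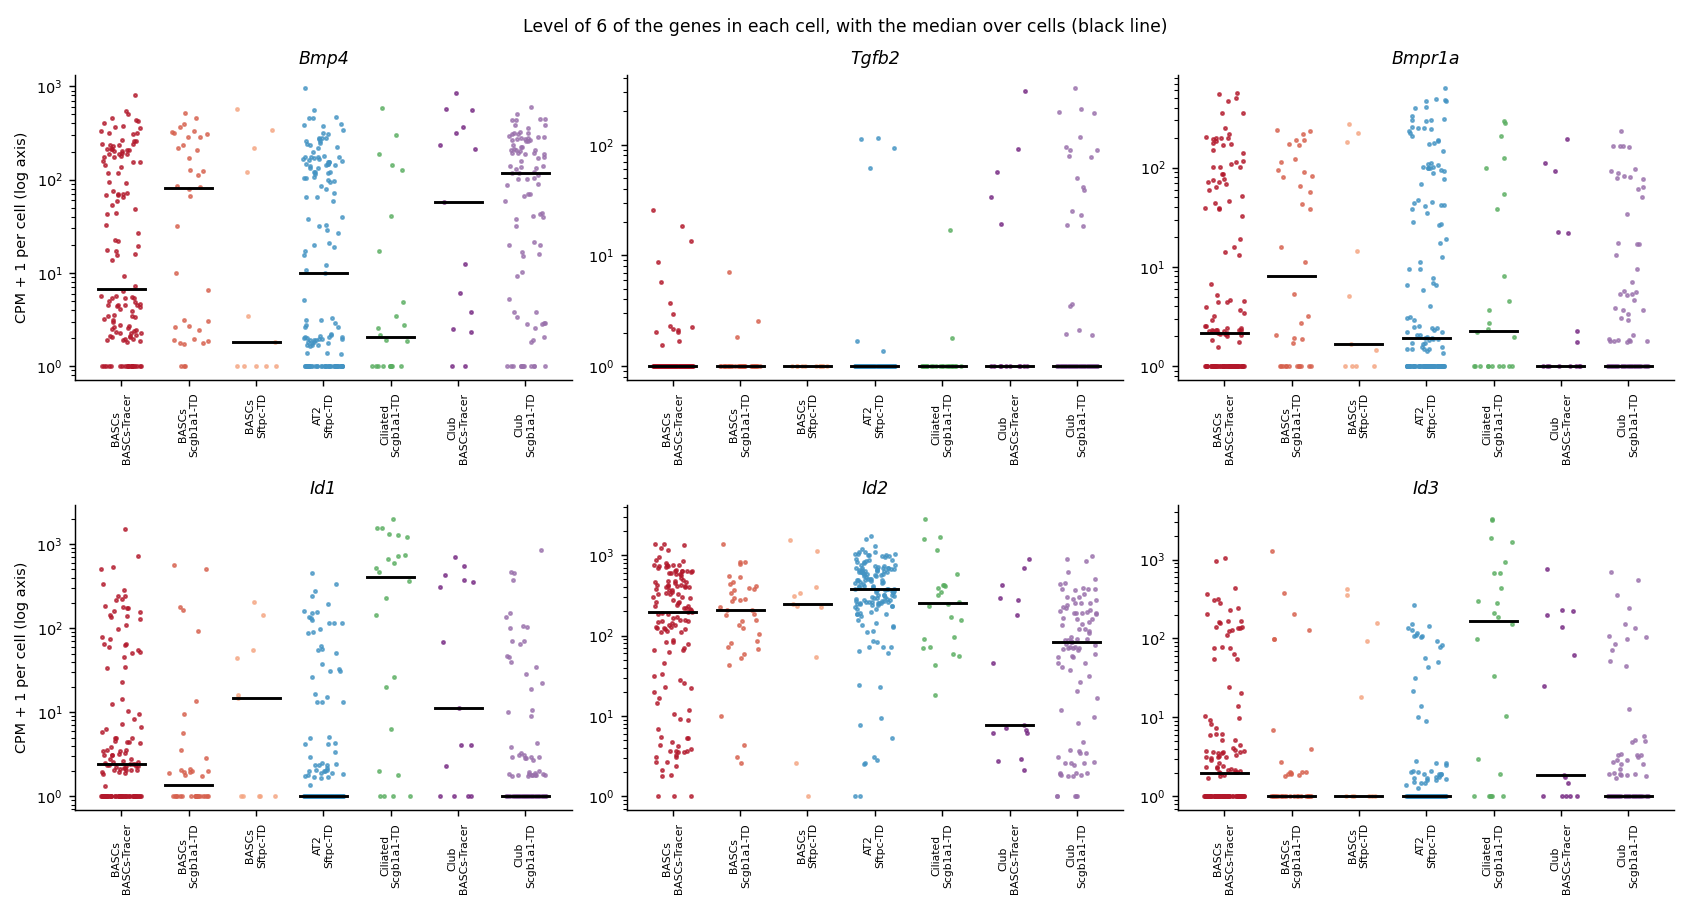
Level per cell as CPM + 1 (vertical axis, log) of 6 of the genes in 7 groups of cells; each point is 1 cell and the black line is the median over cells, with cells without a read at 1. Tgfb2 rises above 1 mainly in club cells, and ciliated cells are the only group shown whose median cell passes 100 CPM of both Id1 and Id3 (411 and 168 CPM).

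Bmpr1a, a type I BMP receptor (ENSMUSG00000021796, chr14:34410734-34503341), was higher in BASCs and AT2 cells than in club cells. The pools held 53.5 CPM in BASCs-Tracer BASCs, 52.5 CPM in Scgb1a1-TD BASCs, 67.1 CPM in Sftpc-TD BASCs and 56.7 CPM in AT2 cells, against 33.6 CPM in ciliated cells, 16.7 CPM in BASCs-Tracer club cells and 18.8 CPM in Scgb1a1-TD club cells. By plate BASCs had 66.4 and 32.3 CPM in BASCs-Tracer and 71.6, 37.8 and 80.1 CPM in Scgb1a1-TD, against 40.3 and 4.22 CPM in BASCs-Tracer club cells and 14.2, 19.4 and 20.8 CPM in Scgb1a1-TD club cells. The ranges of BASCs and club cells did not overlap in Scgb1a1-TD and did in BASCs-Tracer, and those of AT2 cells, both these groups of BASCs and ciliated cells overlapped down the order. The log2 ratio of BASCs over club cells was 1.43 in Scgb1a1-TD (2.70-fold, 9 of 9 plate pairs; 2.10 without plate 3) and 1.62 in BASCs-Tracer (3.08-fold, 3 of 4), where it was 0.71 without plate 2 and 0.76 with CPM averaged over cells. AT2 cells over Scgb1a1-TD club cells gave 1.54 (2.91-fold, 6 of 6).

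Bmpr2, the type II BMP receptor (ENSMUSG00000067336, chr1:59763400-59879014), differed between lines as much as between cell types. It stood at 59.7 CPM in BASCs-Tracer BASCs, 93.6 CPM in Scgb1a1-TD BASCs, 130.95 CPM in Sftpc-TD BASCs, 82.5 CPM in AT2 cells, 35.1 CPM in ciliated cells, 124.3 CPM in BASCs-Tracer club cells and 42.97 CPM in Scgb1a1-TD club cells. BASCs had 66.04 and 49.2 CPM by plate in BASCs-Tracer, against 93.4 and 140.7 CPM in its club cells. In Scgb1a1-TD they had 143.8, 76.2 and 122.01 CPM, against 29.9, 38.4 and 72.2 CPM in its club cells. BASCs lay below club cells on both plates of BASCs-Tracer and above them on all 3 plates of Scgb1a1-TD, with log2 ratios of -1.05 (4 of 4 plate pairs) and 1.11 (9 of 9). The BASCs-Tracer ratio was -0.49 without plate 2 and the Scgb1a1-TD ratio 0.99 without plate 2. A single cell held 65.1% of the reads of Sftpc-TD BASCs, and the 7 cells on plate 5 pooled to 27.02 CPM.

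Tgfbr1, the type I TGF-beta receptor (ENSMUSG00000007613, chr4:47353222-47414931), was near 0 in the pooled club cells of one line only. Levels were 25.2 CPM in BASCs-Tracer BASCs, 26.7 CPM in Scgb1a1-TD BASCs, 30.3 CPM in Sftpc-TD BASCs, 41.9 CPM in AT2 cells, 9.13 CPM in ciliated cells, 0.345 CPM in BASCs-Tracer club cells and 34.9 CPM in Scgb1a1-TD club cells. BASCs-Tracer club cells held 5 reads in 14484650, in 5 of 15 cells (interval 0.112 to 0.806 CPM), and stood at 0.598 and 0.211 CPM on their plates. Scgb1a1-TD club cells stood at 20.5, 45.2 and 7.88 CPM. Few of these cells carried the level: 13.6%, 16.7% and 6.67% held 50 CPM or more on plates 2, 3 and 4. Their median cell held 0.413, 0 and 0 CPM, and 50%, 48.3% and 26.7% had a read. Among BASCs-Tracer club cells, 14.3% of 7 on plate 1 and 0% of 8 on plate 2 held 50 CPM or more. The plate 1 pool held 3 Tgfbr1 reads in all, so a cell at that level had few reads in total. Whether sampling of only 15 cells gave the low pooled level was not tested. Plate ranges of neighbours in the order overlapped from AT2 cells down to BASCs-Tracer BASCs, and those of ciliated cells and BASCs-Tracer club cells lay lower in the order; the range of ciliated cells, 0.996 to 14.1 CPM, still overlapped those of Scgb1a1-TD club cells and Scgb1a1-TD BASCs, while that of BASCs-Tracer club cells lay below all others. Within BASCs-Tracer the log2 ratio of BASCs over club cells was 4.28 (19.5-fold, 4 of 4 plate pairs; 2.25 with CPM averaged over cells and 1.77 with 10 CPM added), and within Scgb1a1-TD it was -0.37 (5 of 9 plate pairs of the same sign). The cell with Ptprc held 50.4% of the Tgfbr1 reads of Sftpc-TD BASCs, whose level was 15.8 CPM without it. The lower level of ciliated than of club cells in Scgb1a1-TD (log2 ratio -1.82) was -0.31 without plate 3.

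Tgfbr2, the type II TGF-beta receptor (ENSMUSG00000032440, chr9:116084293-116175360), was read in all groups with wide plate ranges. It reached 70.1 CPM in BASCs-Tracer BASCs, 47.7 CPM in Scgb1a1-TD BASCs, 39.8 CPM in Sftpc-TD BASCs, 62.2 CPM in AT2 cells, 98.02 CPM in ciliated cells, 38.04 CPM in BASCs-Tracer club cells and 32.9 CPM in Scgb1a1-TD club cells. The plates of Scgb1a1-TD BASCs gave 219, 19.2 and 80.3 CPM, the highest of them from 5 cells, and those of ciliated cells gave 15.4, 111.7 and 94.9 CPM. BASCs-Tracer BASCs, at 57.4 and 91.04 CPM, lay above the 20.5, 35.2 and 35.01 CPM of Scgb1a1-TD club cells in 6 of 6 plate pairs (log2 ratio 1.07), but by 0.69 without plate 2.

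Id1 (ENSMUSG00000042745, chr2:152736251-152737410) was highest in ciliated cells. The pools stood at 56.2 CPM in BASCs-Tracer BASCs, 41.7 CPM in Scgb1a1-TD BASCs, 49.96 CPM in Sftpc-TD BASCs, 25.2 CPM in AT2 cells, 554 CPM in ciliated cells, 242 CPM in BASCs-Tracer club cells and 37.8 CPM in Scgb1a1-TD club cells. By plate ciliated cells had 260.4, 471 and 819 CPM, against 6.43, 35.5 and 74.9 CPM in club cells of the same plates. The plate ranges did not overlap, and the log2 ratio of ciliated over club cells was 3.84 (14.3-fold, 9 of 9 plate pairs). At 50 CPM or more were 15 of 24 ciliated cells, against 12 of 97 Scgb1a1-TD club cells. Among the 20 ciliated and 17 club cells with under 50 CPM of other cell types' markers, the ratio was 1.92. Those markers include Lcp1 and Kdr, at 122.9 and 120 CPM in the Scgb1a1-TD club cell pool. Ptprc and the endothelial Cdh5 were 0.0103 and 1.84 CPM there, so the limit cannot be read as a filter of stray cells alone. BASCs-Tracer club cells had 165 and 282 CPM by plate, but 1 cell held 63.7% of their reads, and the ratio of BASCs over club cells in that line was -2.08 with it and -1.37 without the highest cell of each group, and -1.38 without plate 2. BASCs-Tracer BASCs, at 63.1 and 45.02 CPM by plate, lay above the 21.4 and 27.1 CPM of AT2 cells (log2 ratio 1.13, 4 of 4 plate pairs). That ratio was 0.81 without plate 1 and 0.93 without the highest cell of each group. The plate ranges of ciliated cells and BASCs-Tracer club cells overlapped, and those of the other groups overlapped below them.

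Id2 (ENSMUSG00000020644, chr12:25093799-25097140) was the most widely detected of the 10 genes. Its pooled level was 288 CPM in BASCs-Tracer BASCs, 289 CPM in Scgb1a1-TD BASCs, 547 CPM in Sftpc-TD BASCs, 439 CPM in AT2 cells, 476 CPM in ciliated cells, 216 CPM in BASCs-Tracer club cells and 146.6 CPM in Scgb1a1-TD club cells. The median cell held 193, 206 and 247 CPM in BASCs of BASCs-Tracer, Scgb1a1-TD and Sftpc-TD, 380.0 CPM in AT2 cells, 250.5 CPM in ciliated cells, 6.80 CPM in BASCs-Tracer club cells and 81.1 CPM in Scgb1a1-TD club cells. AT2 cells had 457 and 430 CPM by plate and ciliated cells 381, 481 and 494 CPM, above the 86.8, 149.8 and 189 CPM of Scgb1a1-TD club cells without overlap. AT2 cells were 2.98-fold (log2 ratio 1.58, 6 of 6 plate pairs) and ciliated cells 3.23-fold (1.69, 9 of 9) above them. Scgb1a1-TD BASCs were 1.96-fold above the club cells of their line, in 9 of 9 plate pairs. A single cell held 71.5% of the Id2 reads of BASCs-Tracer club cells.

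Id3 (ENSMUSG00000007872, chr4:136143497-136145755) followed Id1. Levels stood at 47.3 CPM in BASCs-Tracer BASCs, 56.1 CPM in Scgb1a1-TD BASCs, 96.2 CPM in Sftpc-TD BASCs, 13.3 CPM in AT2 cells, 552 CPM in ciliated cells, 113.4 CPM in BASCs-Tracer club cells and 33.02 CPM in Scgb1a1-TD club cells. Ciliated cells had 311, 601 and 523 CPM by plate, against 0.656, 39.8 and 36.3 CPM in club cells of the same plates, a log2 ratio of 4.02 (16.2-fold, 9 of 9 plate pairs). BASCs-Tracer BASCs, at 56.9 and 31.5 CPM by plate, lay above AT2 cells, at 9.06 and 15.5 CPM, by 3.37-fold (log2 ratio 1.75, 4 of 4 plate pairs, no shared plate). Sftpc-TD BASCs lay above AT2 cells by a log2 ratio of 2.76, and by 3.17 on the shared plate 5; without the highest cell of each group the ratio was 1.81. A single cell held 59.8% of the Id3 reads of Scgb1a1-TD BASCs.

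Immediate early and dissociation genes were also higher in ciliated than in club cells. The 13 genes of that list summed to 21534 CPM in ciliated cells, with 20377 to 23776 CPM by plate, against 8625 CPM in Scgb1a1-TD club cells, with 8247 to 9067 CPM by plate. Their sums were 12659 CPM in BASCs-Tracer BASCs and 10611 CPM in AT2 cells. Per cell, Spearman rho with the summed list in ciliated cells was -0.18 for Id1 and 0.06 for Id3. It was 0.32 and 0.17 in BASCs-Tracer BASCs, 0.12 and -0.04 in AT2 cells, 0.23 and 0.03 in Scgb1a1-TD BASCs, and 0.22 and 0.18 in Scgb1a1-TD club cells; cells of a group share plates and depth. The part of this list in the Id1 and Id3 differences was not tested.

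Ciliated cells were set against club cells within Scgb1a1-TD, which share all 3 plates. Of 9 genes measured (5 CPM or more in either group), 4 were 2-fold or more higher (Id1, Id2, Id3, Tgfbr2), against 43% of all 12011 genes measured, and 3 were lower (Bmp4, Tgfb2, Tgfbr1), against 14.9%. The share of higher genes is near the background, so the count of higher genes is not a result about these genes. The 6 club markers held 42875 CPM in ciliated cells, against 353197 CPM in club cells, and the median log2 ratio of all genes was 0.74. Read against that shift, Tgfbr2 and Id2 lay nearer to the other genes than Id1 and Id3 did. With totals without the mitochondrial genes and the 10 top genes, the median of all genes was 0.08, 29.2% of genes were higher and 24.9% lower, and the ratios were 3.24 for Id1, 3.43 for Id3, 1.09 for Id2 and 0.95 for Tgfbr2.

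BASCs were set against club cells in 3 ways. Within Scgb1a1-TD, 3 of 10 genes were higher (Tgfb1, Bmpr1a, Bmpr2), against 17.2% of all genes, and 1 was lower (Tgfb2), against 24.7%. Tgfb1 rested on plate 3, without which its ratio was -0.42. Within BASCs-Tracer, 2 of 9 genes were higher (Bmpr1a, Tgfbr1), against 31.8%, and 5 were lower (Bmp4, Tgfb2, Bmpr2, Id1, Id3), against 21%. The 15 club cells behind this comparison make single cells heavy, and the ratio of Bmp4 was -0.44 and that of Bmpr1a 0.71 without plate 2. Across lines, BASCs-Tracer BASCs over Scgb1a1-TD club cells gave 2 of 9 higher (Bmpr1a, Tgfbr2), against 18.5%, and 1 lower (Tgfb2), against 15.2%. Bmpr1a there was 0.75 without plate 1. The comparisons within Scgb1a1-TD and across lines share the same club cells. Side by side, the log2 ratios of Tgfb2 were -3.89, -4.71 and -3.74 and those of Bmpr1a 1.43, 1.62 and 1.46 within Scgb1a1-TD, within BASCs-Tracer and across lines.

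BASCs were set against AT2 cells in 2 ways, which share the AT2 cells. BASCs-Tracer BASCs gave 2 of 9 genes higher (Id1, Id3), against 9.9% of all genes, and 0 lower, against 9.17%. Sftpc-TD BASCs gave 1 of 9 higher (Id3), against 16.6%, and 0 lower, against 35.4%, with Id1 just inside 2-fold at a log2 ratio of 0.96. Without the cell with Ptprc, 3 were higher and 2 lower in the comparison within Sftpc-TD, against 15.4% and 38.8% of all genes. AT2 cells over Scgb1a1-TD club cells gave 3 of 10 higher (Tgfb1, Bmpr1a, Id2), against 19.5%, and 2 lower (Tgfb2, Id3), against 15.8%. Id3 there was -0.51 without plate 3. On the shared plate 4 alone 5 were higher and 3 lower, against 28.4% and 21.5% of all genes there.

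BASCs of the 2 lines with most of them were close in the pools. BASCs-Tracer BASCs over Scgb1a1-TD BASCs gave 0 of 9 genes 2-fold higher, against 21.1% of all genes, and 0 lower, against 10.2%, with ratios between -0.64 (Bmpr2) and 0.54 (Tgfbr2). On the shared plate 2, where Scgb1a1-TD had 5 BASCs, 1 gene was higher and 4 were lower, against 40.1% and 25.6% of all genes there, with Id1 at 3.48, Bmpr2 at -1.53 and Id2 at -1.49. The plates of one line differed from each other as much: Id2 in BASCs-Tracer BASCs was 371 CPM on plate 1 and 150.4 CPM on plate 2.

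**Figure D3:**
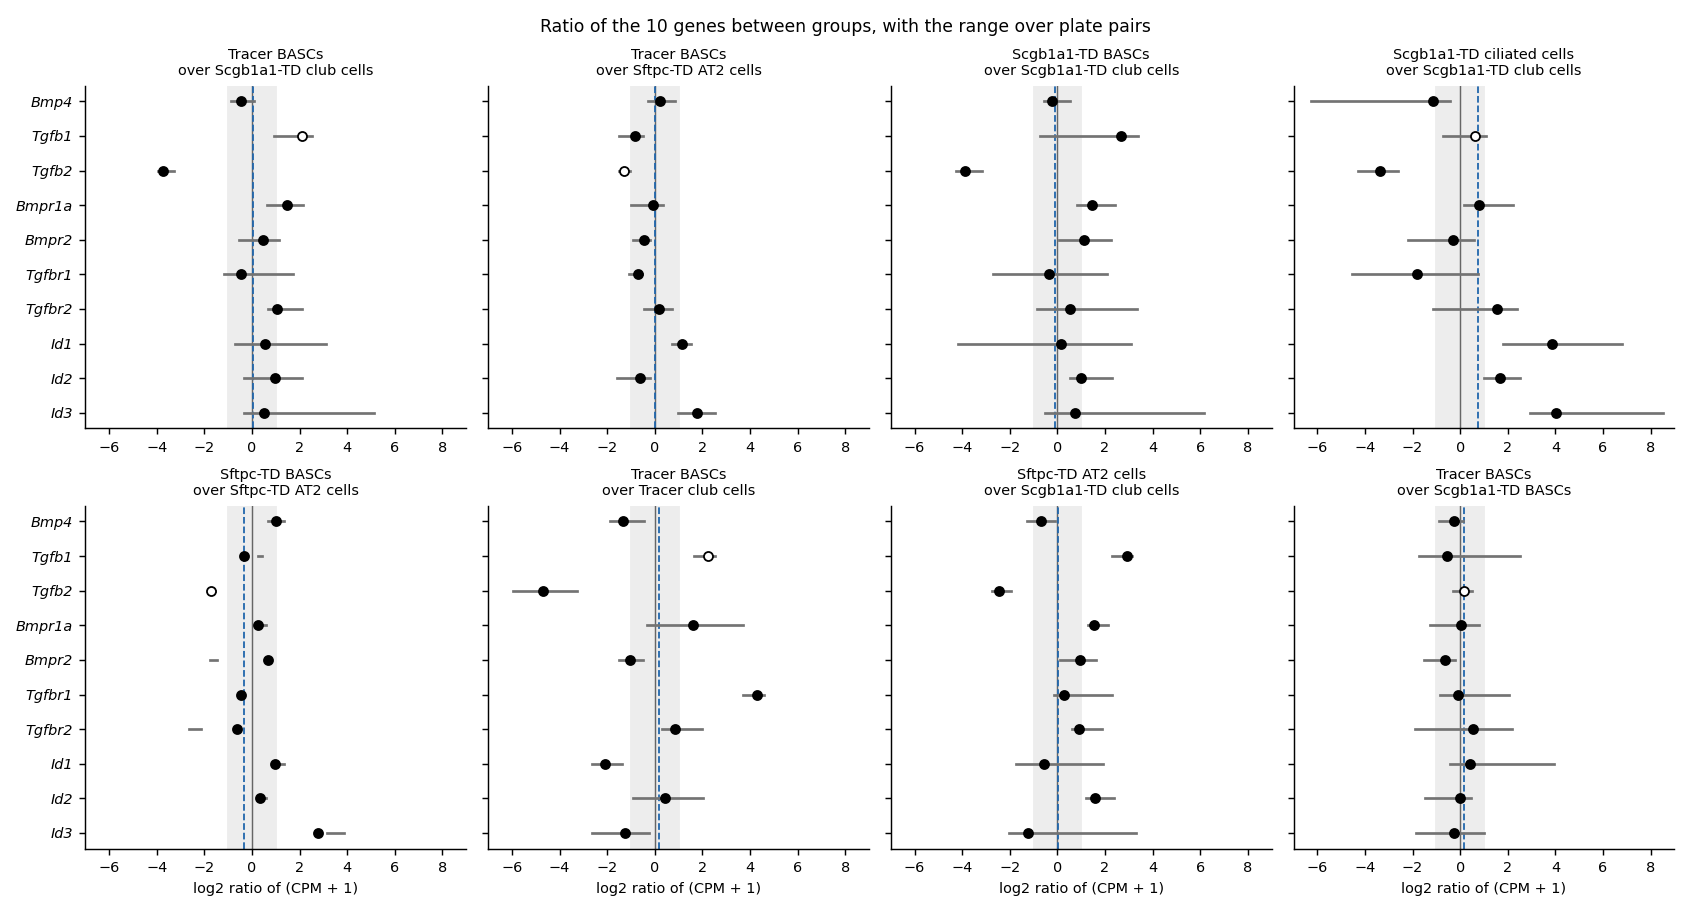
Log2 ratio of CPM + 1 (horizontal axis) of the 10 genes in 8 comparisons, first-named group over second. Filled points are genes measured at 5 CPM or more in either group and open points are others; grey lines are the range over plate pairs (7 of 11 cells for Sftpc-TD BASCs, so the point can lie outside), grey bands mark less than 2-fold and dashed lines the median of all genes. Tgfb2 lies left of the band in all 5 comparisons with club cells.

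Detection was compared after each cell was thinned to 100000 reads, which left out 12 cells. Id2 was read in 81.2% of BASCs-Tracer BASCs (exact interval 73.5% to 87.5%) and 95.9% of AT2 cells (91.4% to 98.5%), against 76.6% of Scgb1a1-TD club cells (66.7% to 84.7%). Id1 was read in 70.8% of ciliated cells (48.9% to 87.4%), against 27.7% of Scgb1a1-TD club cells (18.9% to 37.8%). For Id3 the shares were 62.5% (40.6% to 81.2%) in ciliated cells and 15.96% (9.22% to 24.95%) in those club cells. Both Id genes were thus read in a larger share of these ciliated cells than of these club cells; cells of 1 sample are not replicates. BASCs-Tracer BASCs with a read of Id1 made up 38.3% (30.1% to 47.2%), against 20.9% of AT2 cells (14.7% to 28.4%). Bmpr1a was read in 36.8% of BASCs-Tracer BASCs (28.6% to 45.6%) and 51.4% of Scgb1a1-TD BASCs (34.4% to 68.1%), against 20.2% of Scgb1a1-TD club cells (12.6% to 29.8%). Tgfbr1 was read in 0 of the 13 BASCs-Tracer club cells left after thinning, while 5 of 15 (33.3%) had a read without it. Without thinning the shares were higher, for example 97.8% for Id2 and 63.8% for Id1 in BASCs-Tracer BASCs.

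**Figure D4:**
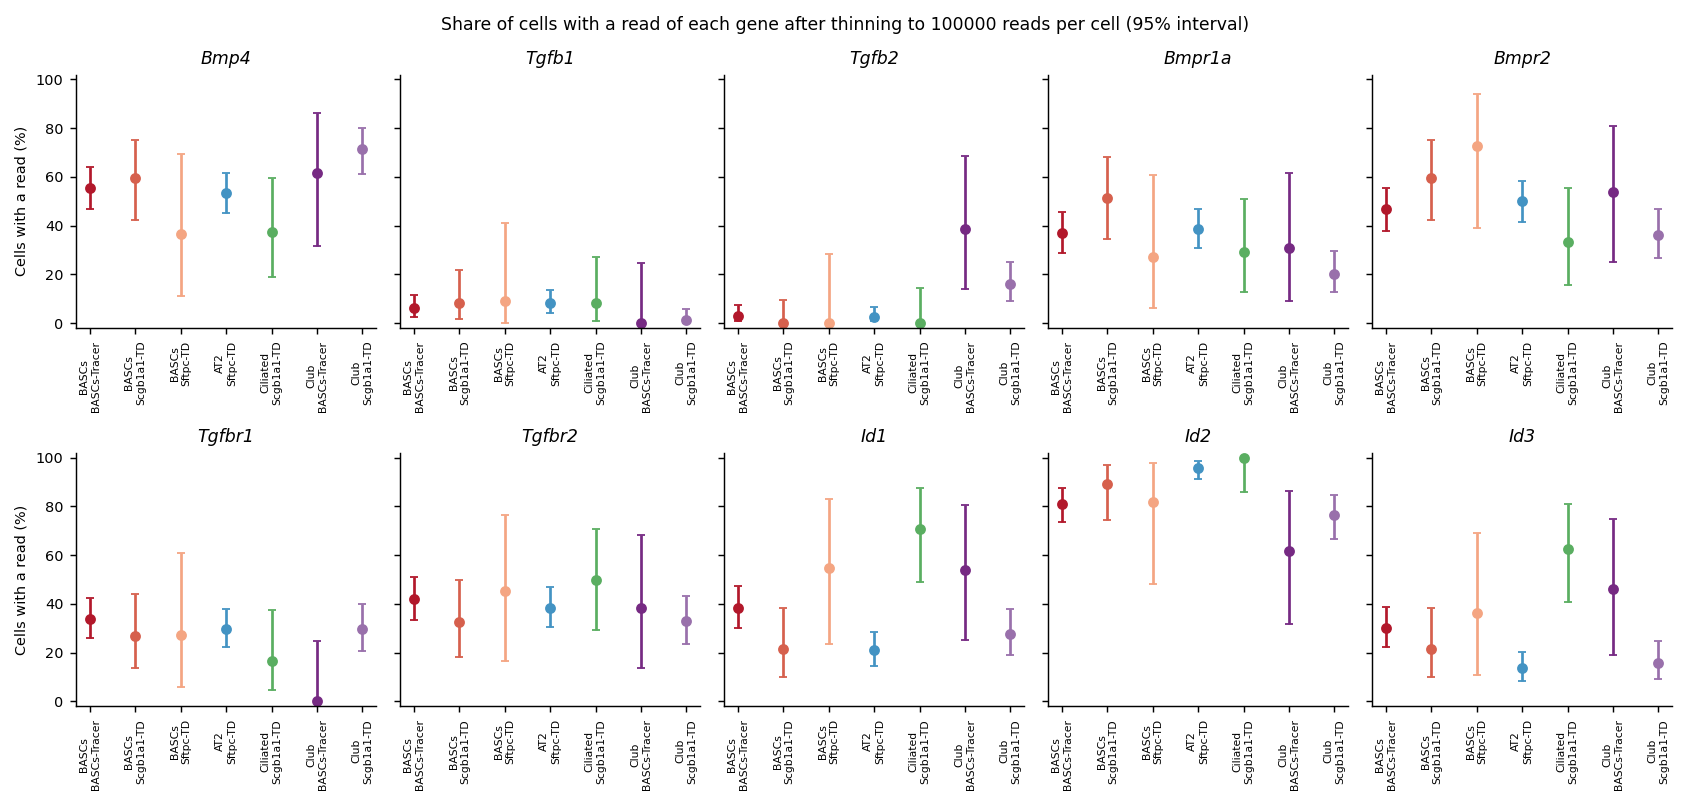
Share of cells with a read (vertical axis, percent) of the 10 genes in 7 groups after thinning to 100000 reads per cell; bars are 95% exact binomial intervals over cells. Id2 is read in most cells of all groups, and Tgfb1 in under 10% of cells of all groups.

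A wider list of 65 pathway genes, of which 64 had an identifier, was described in the same comparisons. BASCs-Tracer BASCs over Scgb1a1-TD club cells gave 15 higher and 3 lower of 40 measured, with a median log2 ratio of 0.54, against 18.5% higher, 15.2% lower and a median of 0.06 over all genes. Within Scgb1a1-TD, BASCs over club cells gave 14 higher and 10 lower of 39, against 17.2% and 24.7% of all genes. Ciliated over club cells gave 17 higher and 3 lower of 39 with a median of 0.83, against 43%, 14.9% and 0.74 over all genes, so the share of higher genes was near the background. Within BASCs-Tracer, 16 of 43 were higher and 15 lower in BASCs than in club cells, against 31.8% and 21% of all genes. In that line higher and lower genes were about equal in number. BASCs-Tracer BASCs over AT2 cells gave 6 higher and 1 lower of 40, against 9.9% and 9.17%, and Sftpc-TD BASCs over AT2 cells 9 higher and 13 lower of 39, against 16.6% and 35.4%. AT2 cells over club cells gave 13 higher and 4 lower of 39, against 19.5% and 15.8%, and BASCs-Tracer over Scgb1a1-TD BASCs 14 higher and 5 lower of 40, against 21.1% and 10.2%.

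Bmpr1b, a type I BMP receptor, stood at 0.3002 CPM in BASCs-Tracer BASCs, 0.126 CPM in Scgb1a1-TD BASCs and 0.0104 CPM in AT2 cells, against 23.3 CPM in ciliated cells, 41.5 CPM in BASCs-Tracer club cells and 42.9 CPM in Scgb1a1-TD club cells. It was thus at or near 0 in the groups in which Bmpr1a was highest; Sftpc-TD BASCs held 0 reads. A single cell held 49.1% of the reads of BASCs-Tracer club cells and 46.6% of those of ciliated cells. Acvrl1, another type I receptor and best known from endothelium, was 68.1 CPM in Sftpc-TD BASCs, against 13.02 CPM in AT2 cells, but 1 cell held 92.3% of these reads and 1 of 2 plate pairs had the direction.

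Bmp1, which despite its name is a procollagen-cleaving protease, was 194 CPM in BASCs-Tracer BASCs, 395 CPM in Scgb1a1-TD BASCs and 206 CPM in AT2 cells, against 27.5 CPM in Scgb1a1-TD club cells. The ratios over those club cells were 2.77, 3.80 and 2.86, in 6 of 6, 9 of 9 and 6 of 6 plate pairs. Sftpc-TD BASCs held less Bmp1, at 96.1 CPM, 2.13-fold below AT2 cells. Bambi, a pseudoreceptor that dampens signalling, was 99.3 CPM in Scgb1a1-TD BASCs and 118.8 CPM in AT2 cells, against 33.004 CPM in Scgb1a1-TD club cells. In BASCs-Tracer BASCs it was 73.7 CPM, above Scgb1a1-TD club cells in 4 of 6 plate pairs, with a log2 ratio of -0.38 on the shared plate 2. Ltbp3, which binds latent TGF-beta, was 85.5 CPM in Scgb1a1-TD BASCs and 66.7 CPM in AT2 cells, against 12.9 CPM in those club cells. Itgb6, whose integrin releases latent TGF-beta, was lower in AT2 cells at 4.36 CPM, against 28.1 CPM in Scgb1a1-TD club cells.

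Tgfbi, an extracellular protein named for its induction by TGF-beta and singled out after its values were seen, was 37.2 CPM in BASCs-Tracer BASCs, 40.9 CPM in Scgb1a1-TD BASCs, 45.7 CPM in Sftpc-TD BASCs and 44.5 CPM in AT2 cells. It was 0.227 CPM in ciliated cells, 0.138 CPM in BASCs-Tracer club cells and 0.175 CPM in Scgb1a1-TD club cells. The cell with Ptprc held 41.3% of the Tgfbi reads of Sftpc-TD BASCs, whose level was 28.1 CPM without it, and AT2 cells held no such cell. Hes1, a repressor also driven by Notch, was 257 CPM in BASCs-Tracer club cells and 201 CPM in Scgb1a1-TD club cells. It was 121.2 CPM in BASCs-Tracer BASCs, 41.7 CPM in Scgb1a1-TD BASCs and 82.4 CPM in AT2 cells. BASCs-Tracer BASCs were thus 2.86-fold above Scgb1a1-TD BASCs, in 6 of 6 plate pairs.

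Among genes named for ciliated over club cells, where 43% of all genes were higher, was Smad5, which carries BMP signals. It was 137.4 CPM, against 23.4 CPM in Scgb1a1-TD club cells (log2 ratio 2.50, 9 of 9 plate pairs), while Smad1, its close relative (named after its values were seen), was 13.8 CPM, against 10.01 CPM. Id4, the fourth Id gene, was 90.8 CPM, against 4.26 CPM in those club cells (4.13, 9 of 9). Smurf2, a ubiquitin ligase acting on Smads, was 132.5 CPM, against 33.1 CPM, higher in 7 of 9 plate pairs, and Tgif1, a corepressor of Smads, was 151 CPM, against 67.9 CPM, a log2 ratio of 1.14 beside the median of 0.74 over all genes. Bmp3, a BMP ligand known to counter other BMPs, was 0.590 CPM, against 84.7 CPM in club cells (ratio -5.75, 9 of 9 plate pairs). Smad3, which carries TGF-beta signals, was 5.63 CPM, against 21.4 CPM, with the same sign in 5 of 9 plate pairs.

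**Figure D5:**
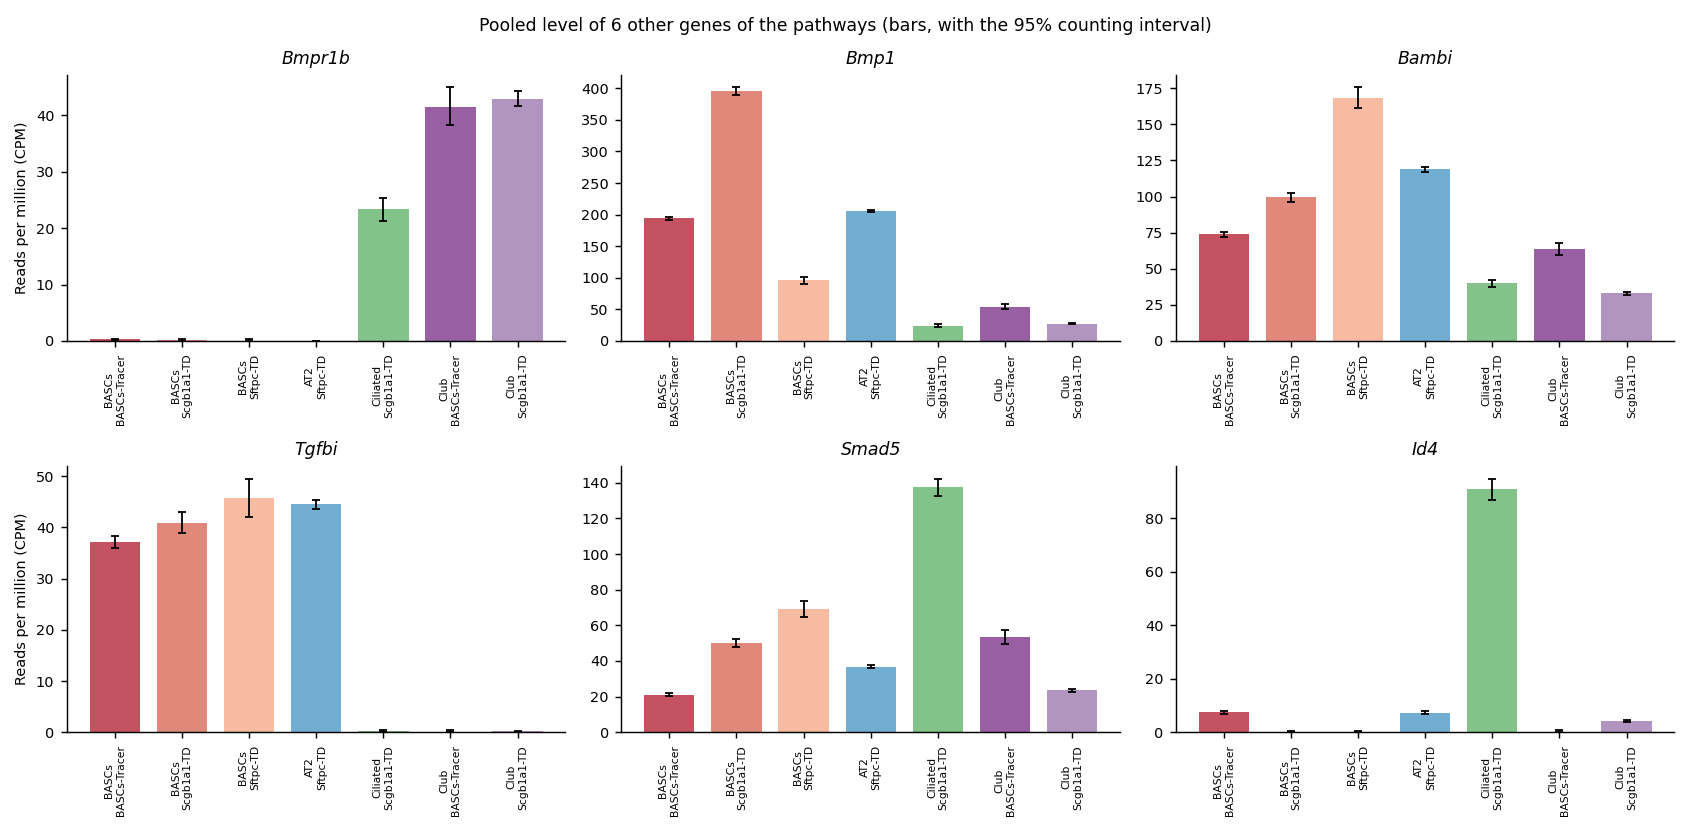
Pooled level in CPM (vertical axis, linear from 0) of 6 other pathway genes in 7 groups; bars are pools of all cells of a group and error bars the 95% Poisson interval of the read count. Bmpr1b is read in ciliated and club cells and Tgfbi in BASCs and AT2 cells, while Id4 stands at 90.8 CPM in ciliated cells.

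Within AT2 cells and within BASCs-Tracer BASCs, the 10 genes hardly went together from cell to cell. Over the 45 pairs of genes, Spearman rho lay between -0.15 and 0.20 in AT2 cells and between -0.14 and 0.22 in BASCs-Tracer BASCs. In 97 Scgb1a1-TD club cells the highest rho was 0.38, between Tgfb2 and Tgfbr1. In 38 Scgb1a1-TD BASCs it was 0.50, between Tgfbr2 and Id2. In the 24 ciliated cells, a group added after the values were seen, rho was 0.64 between Id2 and Id3, 0.53 between Id1 and Id2 and 0.51 between Id1 and Id3, with 17 cells reading both Id1 and Id3, 3 reading Id1 only, 1 reading Id3 only and 3 reading neither. Over all 45 pairs in ciliated cells rho ran from -0.48 to 0.64, and 12 pairs were at 0.3 or more in size. Among them were Bmp4 and Bmpr2 at -0.48, and Tgfb1 and Tgfb2, each read in 2 cells only, at 0.50. The Id pairs are thus not set apart from sparse pairs by their rho. Cells of a group share plates and depth, and most of these counts are sparse.

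Over the 16 pools of 1 line, sub-type and plate, the genes most like each of 9 members were ranked among 8259 genes by Pearson's r of log2(CPM + 1); Tgfb1 was too low to rank. Id3 was most like Ezr, which encodes ezrin, with r of 0.81, and then like Id1 with 0.80 and Psmc6 with 0.79, while Id2 had 0.21 with Id1 and 0.41 with Id3. Id1 was like Fam84b (0.87) and Xpo1 (0.86), and Id2 like Sord (0.84), Map1lc3a (0.84) and Ndfip2 (0.83). Tgfb2 was most like Lrrc26 (0.91), Selenbp1 (0.90) and the sodium channel subunit gene Scnn1b (0.88). Bmpr1a was most like Polr2a (0.95), Ep300 (0.91) and Ick (0.87), and Bmpr2 like Ctnnal1 (0.90), Ssr2 (0.89) and Hs2st1 (0.87). Bmp4 was most like Mif, Celf2 and Atp11a (all 0.92), Tgfbr1 like Arcn1 (0.89), Ppm1a (0.88) and Itprid2 (0.84), and Tgfbr2 like Dnajc9 (0.85), Stat2 (0.85) and Bbs2 (0.83). The pools share lines, plates and depth, and the top 3 of so many genes reach a high r in 16 pools readily.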

How the data were processed

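Single tdTomato-positive cells were sorted from digested lungs, and full-length cDNA was amplified and made into libraries, per the labels' protocols. The submitters' processing notes name HISAT2, HTSeq and the build GRCm38; their versions and the strand setting are not stated in any source used here, so overlapping or antisense genes cannot be told apart from the members. Deposited by the authors were raw read counts per gene and cell, unscaled. Its header lacks a name over the gene identifiers, so each name was taken as that of the count column in the same place, and 0 columns were left unmatched. Symbols and positions came from GENCODE M21 and matched 53274 of 53379 identifiers. One gene of the wider list, Ctgf, had no identifier under that symbol.

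Reads were summed over the cells of each line and sub-type and scaled to CPM by all gene-assigned reads (Python 3.11.15, pandas 2.3.3, scipy 1.17.1). Ratios and folds are of CPM + 1, on the log2 scale where so named, and understate changes of low genes. A gene was measured at 5 CPM or more in either group and apart at 2-fold. Exact Poisson intervals treat reads as independent, and exact Clopper-Pearson intervals treat the cells of 1 sample as the units. Neither covers variation between animals. Depth per group ran from 12569714 to 192171985 reads. No test was made, because each line is 1 sample, and no doublet caller was run. The members and lists were chosen with earlier results of these data known. All 10 members were named; of the wider list, the 3 highest genes past 2-fold per comparison and direction were eligible, not all of them are reported here, and exceptions are said. The steps were tested on simulated counts. Alternatives tried were averaging CPM over cells, scaling by median of ratios, other totals, 10 CPM added, no filter, deeper cells, cells low in other markers, each plate left out, shared plates only and other detection limits; leaving out each gene's highest cell or cells with Ptprc was added after the data were seen.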

Additional observations from a re-analysis of the deposited data

Results flagged for a closer look

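The ratio of Bmpr2 in BASCs over club cells went opposite ways in 2 lines. It was -1.05 on the log2 scale in BASCs-Tracer, lower in BASCs on both plates, and 1.11 in Scgb1a1-TD, higher in BASCs on all 3 plates. The difference between the lines was not tested, since each line is 1 sample. The BASCs-Tracer value rests on 15 club cells, and 1 cell held 49.5% of their Bmpr2 reads; without the highest cell of each group it was -0.77.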

How the results depend on the processing

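Each line is 1 sample, so no call had a replicate check. No paired analysis was possible because the cell numbers follow accession order and pair nothing; ratios within shared plates are given as values. Of 917 alternative values of the 10 genes' log2 ratios, 788 stayed within 1.5-fold of the value given, and 2 reversed among genes called 2-fold apart. Both the 917 and the 788 include the setting with no filter, which cannot move a ratio, so the 788 overstates stability. Ratios within 2-fold also changed sign, such as Bmpr2 in Sftpc-TD BASCs over AT2 cells, which was -1.48 on the shared plate, against 0.66. The 2 reversals were as follows. Tgfbr1 in ciliated over club cells was 0.51 in cells under 50 CPM of other cell types' markers, against -1.82, and Tgfb1 in Scgb1a1-TD BASCs over club cells was -0.42 without plate 3, against 2.65; for Tgfb1 all reads of those BASCs lay on plate 3, and for Tgfbr1 the cause was not tested. The count of genes 2-fold apart moved by over 1.5 times as follows, while it stayed between 6 and 8 in ciliated over club cells and between 5 and 8 in BASCs over club cells of BASCs-Tracer, with 7 in each as given. Tracer BASCs over Scgb1a1-TD club cells had 3, but 6 with the marker limit, where 27.97% of all genes were higher and 32.04% lower, and 5 without plate 3 or on the shared plate. Tracer BASCs over AT2 cells had 2, but 1 with 10 CPM added or without each gene's highest cell, 5 with the marker limit and 4 without plate 1. Scgb1a1-TD BASCs over club cells had 4, but 2 with 10 CPM added and 9 with the marker limit. Sftpc-TD BASCs over AT2 cells had 1, but 3 with median-of-ratios scaling, with totals without the top genes or without each gene's highest cell, 2 with no filter, 4 without plate 4 or on the shared plate and 5 without the cell with Ptprc. AT2 over club cells had 5, but 3 with 10 CPM added, 9 with the marker limit and 8 without plate 5 or on the shared plate. Tracer over Scgb1a1-TD BASCs had 0, but 5 with the marker limit or on the shared plate, 1 without plate 1, 3 without plate 3 and 2 without plate 4. With the marker limit and on the shared plate, the share of all genes apart was higher too. The marker limit left 6 to 38 cells in the groups it was run on and under 5 in Sftpc-TD BASCs and BASCs-Tracer club cells, where it was not run. With so few cells single cells weigh more; the cause of the other changes was not tested.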
